A study of Mus musculus with 18 samples.

Results

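Clustered histone genes are the short genes, packed side by side in a few places of the genome, that supply most of the histone protein of a dividing cell. Of 56551 genes in the deposited expression table, 69 carried a mouse symbol that starts with Hist1h, Hist2h, Hist3h or Hist4h and does not end in the pseudogene suffix -ps. All 69 are described here. They comprised 6 genes of the linker histone H1, 20 of H2A, 18 of H2B, 12 of H3 and 13 of H4. The Hist1 cluster on chromosome 13 held 56 of them, the Hist2 cluster on chromosome 3 held 10, Hist3 on chromosome 11 held 2, and 1 gene, Hist4h4, lies on chromosome 6. The GENCODE annotation gives 67 of them as protein-coding and 2, Hist1h2aj and Hist1h2al, as pseudogenes. A single symbol with the suffix, Hist3h2bb-ps, was left out.

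The study profiled RNA from mouse embryonic stem cells, cultured cells that can give rise to every lineage of the embryo, which lacked different subunits of Polycomb repressive complex 1 (PRC1). WT cells were compared with 5 knockout genotypes: Ring1a-KO and Ring1b-KO, each without 1 of the catalytic RING proteins; Ring1a/b-dKO, without both; Pcgf-4KO, in which 4 Pcgf genes were deleted (Pcgf1/3/5/6-/-); and Pcgf-6KO, in which all of them were (Pcgf1/2/3/4/5/6-/-). Each of the 6 groups held 3 libraries, made from total RNA with a TruSeq kit. The labels name no clone, passage, medium or culture for any library, so the p-values measure the spread between these libraries, which may be technical.

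PRC1 places a single ubiquitin on histone H2A, and so acts on the protein that 1 class of these genes encodes. Most clustered histone genes are transcribed in S phase, when new DNA is packed into nucleosomes. Their mRNAs normally carry no poly(A) tail: transcription runs through a short stem-loop that the protein Slbp binds, and the U7 small nuclear ribonucleoprotein directs cleavage just behind it. A clustered gene can also be read past the stem-loop to a poly(A) signal further on, which gives a polyadenylated mRNA, and this form is best known from cells that leave the cycle or differentiate. Whether poly(A) selection was used for these libraries is unknown, so a level below is the RNA that the library preparation captured, with or without a tail.

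The stem-loop is shown first, because the annotated gene models differ in whether they stop at it. It was searched for in the sense strand of the GENCODE M21 transcripts (build GRCm38) as a run of 16 bases: GG, 2 free bases, CTT, a free base, T, a free base, AG, 2 free bases and CC. The pattern was found in a transcript of 46 of the 69 members (66.7%), against 201 of 55450 genes with a transcript (0.362%). The 6 bases on either side are printed here in lower case and the stem-loop in capitals, read 5′ to 3′ along the mRNA, for the genes that lead their class or change most.
Hist1h1c: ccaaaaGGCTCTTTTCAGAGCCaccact
Hist3h2ba: cccaaaGGCTCTTTTCAGAGCCaccttc
Hist1h3c: aaaaaaGGCTCTTTTAAGAGCCacctaa
Hist1h3g: tttaaaGGCTCTTCTTAGAGCCacccat
Hist1h4n: actaaaGGCCCTTTTCAGGGCCatccaa
Hist1h4i: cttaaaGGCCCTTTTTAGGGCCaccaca
Hist1h4j: cctaaaGGTCCTTTTCAGGACCaccaca
The letters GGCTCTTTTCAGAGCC, as in Hist1h1c and Hist3h2ba, occurred in 3 H1, 10 H2A, 8 H2B and 5 H3 genes. Those of Hist1h4n, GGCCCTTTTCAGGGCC, occurred in 7 H4 genes and in no gene of another class. The annotated transcript of 23 members runs on for at least 100 bases past the stem-loop: 840 bases in Hist1h1c, 385 in Hist1h4j, 330 in Hist1h4i and 169 in Hist3h2ba. Another 23 models stop within 100 bases of it, as that of Hist1h4n does after 31. The remaining 23 hold no stem-loop, among them the spliced model of Hist1h2bc, which has 2 exons.

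Promoters are shown for the genes that stood out in the knockouts, with 3 motifs in capitals that were searched on both strands: TATAAA (the TATA box), CCAAT (the CCAAT box) and ATTTGCAT (the octamer of H2B promoters). On the other strand the TATA box reads TTTATA, the CCAAT box ATTGG, and the octamer ATGCAAAT. The letters are from the RefSeq promoter table on GRCm38.p6, and each run is read on the strand named. The first lies between the H2A gene Hist1h2ac, which points away to the left, and the H2B gene Hist1h2bc, which points to the right, and covers the whole 250 bases between their starts in GENCODE M21 (chr13:23683949-23684198, + strand), read within the RefSeq promoter of Hist1h2ac. Hist1h1c (chr13:23738607-23738806, + strand), Hist1h4n (chr13:21832198-21832397, - strand) and Hist1h4i (chr13:22041363-22041562, - strand) are given as the 200 bases before the RefSeq start.
Hist1h2ac and Hist1h2bc: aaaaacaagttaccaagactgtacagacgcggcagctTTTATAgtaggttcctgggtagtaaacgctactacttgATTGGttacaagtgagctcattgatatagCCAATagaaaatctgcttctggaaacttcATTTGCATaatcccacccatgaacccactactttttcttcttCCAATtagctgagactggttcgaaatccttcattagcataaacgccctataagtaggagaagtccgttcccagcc
Hist1h1c: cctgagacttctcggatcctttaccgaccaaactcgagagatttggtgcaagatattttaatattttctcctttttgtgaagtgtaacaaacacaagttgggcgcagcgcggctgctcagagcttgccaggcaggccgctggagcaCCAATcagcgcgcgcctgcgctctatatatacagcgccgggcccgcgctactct
Hist1h4n: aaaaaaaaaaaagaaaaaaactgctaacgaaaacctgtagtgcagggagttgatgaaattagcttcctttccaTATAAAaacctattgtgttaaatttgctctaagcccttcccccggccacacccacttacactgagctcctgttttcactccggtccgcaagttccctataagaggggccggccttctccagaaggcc
Hist1h4i: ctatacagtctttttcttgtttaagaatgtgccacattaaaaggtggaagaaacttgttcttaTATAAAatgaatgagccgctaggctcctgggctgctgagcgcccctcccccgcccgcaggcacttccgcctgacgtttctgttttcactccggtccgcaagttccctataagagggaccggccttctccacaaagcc
RefSeq promoters of 300 bases, 250 before and 50 after the start, were matched to 61 of the 69 members. Hist1h2be had 2, of which the first listed was used. CCAAT was present in 52 of these (85.2%) and in 37.9% of 27025 promoters of the same length: all 6 H1, 17 H2A, 16 H2B and 10 H3 promoters held it, and 3 of 12 H4 promoters did. TATAAA was present in 35 (57.4%, against 14.2%), and ATTTGCAT in 13 (21.3%, against 1.75%), 7 of H2A and 6 of H2B genes. The other promoter of Hist1h2be holds ATTTGCAT as well, which would make these counts 14 and, for H2B, 7. The H4 promoters of Hist1h4n and Hist1h4i share the run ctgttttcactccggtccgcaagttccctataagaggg, 38 bases that begin 59 bases before the start in each. It was found in 3 of the 12 H4 promoters and in 3 of all promoters. A match of letters is a description of the sequence and no evidence that a factor binds there.

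Values are TPM, a transcript abundance scaled for transcript length and for the total of the library. The length is that of an annotated model, which in GENCODE M21 reaches 7425 bases for Hist1h1d, 4884 of them past the stem-loop. A level set beside that of another gene therefore depends on both models, and is understated where the RNA is shorter than its model. Read numbers cannot be had from TPM and the depth is unknown, and a gene with the value 0 is described as listed at 0. The targeted genes themselves were read first. Pcgf6 was at 52.80 to 53.30 TPM in WT, at most 0.10 in Pcgf-4KO and 9.73 to 11.15 in Pcgf-6KO. Pcgf1 was at 9.79 to 11.60 TPM in WT and at 0.28 to 4.28 in those 2 genotypes. Rnf2, which encodes Ring1b, was at 65.92 to 76.40 TPM in WT, 47.35 to 52.98 in Ring1b-KO and 19.38 to 24.74 in Ring1a/b-dKO, and Ring1, which encodes Ring1a, at 7.10 to 7.42, 2.86 to 5.46 in Ring1a-KO and 2.74 to 9.40 in Ring1a/b-dKO, which overlaps WT. Pcgf2 was at 63.50 to 72.82 TPM in WT and 15.38 to 17.91 in Pcgf-6KO. In Pcgf-6KO, Pcgf3 overlapped WT, and Pcgf5 and Bmi1 (Pcgf4) were above it: Bmi1 was at 14.34 to 16.32 TPM there against 0.88 to 2.50. Which exons were deleted is not stated, and a gene's whole TPM can include RNA from outside them, so those levels check nothing about the label. The 7 embryonic stem cell markers were all above 5 TPM in every group. Their summed level was 4119.9 to 4183.2 TPM in WT, 3900.9 to 4203.9 in Ring1a-KO, 7220.7 to 7862.6 in Ring1b-KO, 2587.9 to 2902.2 in Ring1a/b-dKO, 3390.5 to 3520.2 in Pcgf-4KO, and between 1693.7 and 2129.2 in Pcgf-6KO. Of 4 markers of trophoblast giant cells, Hand1 moved with the histone genes, from a mean of 2.45 TPM in WT to 154.1 in Ring1a/b-dKO, 169.4 in Pcgf-4KO and 524.7 in Pcgf-6KO. Of the other 3 markers none reached 1 TPM in any group, and Ctsq was under 0.05 TPM in all 6. The 5 endoderm markers summed to 0.44 to 0.86 TPM in WT and 0.37 to 1.52 in Ring1a-KO, where none reached a mean of 1 TPM. They summed to 8.28 to 10.18 TPM in Ring1b-KO, 9.85 to 11.62 in Ring1a/b-dKO, 4.69 to 6.00 in Pcgf-4KO and 7.28 to 8.75 in Pcgf-6KO, with 2 of the 5 at 1 TPM in each. The 6 fibroblast feeder markers summed to between 7.99 and 23.40 TPM over all libraries, and Postn was under 0.05 TPM in all groups but Pcgf-6KO. The part of these cells in the histone results was not tested.

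Ring1a-KO replicates 2 and 3 stood apart in RNA classes that carry no poly(A) tail. Genes of ribosomal, small nuclear, small nucleolar and other such RNAs took 2.08% and 0.91% of the TPM in these libraries, against 0.15% in Ring1a-KO replicate 1 and 0.25% to 0.34% in WT. Every other library lay between 0.23% and 0.47%. Results that rest on Ring1a-KO are therefore given with and without those 2 libraries. Without them the genotype has 1 library left, which is assumed to vary like the libraries of the other groups. In the Pcgf-6KO libraries the share was 0.23% to 0.25%, at or below the WT range, although the 7SK RNA gene Rn7sk alone was at 31.22 to 54.76 TPM there and at 12.38 to 16.36 in WT. The part of these RNAs in the results was not tested.

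The summed level of the clustered histone genes was higher than in WT in Ring1b-KO and Ring1a/b-dKO and highest in Pcgf-4KO and Pcgf-6KO. The 69 genes together were at 244.0, 237.4 and 250.6 TPM in the WT libraries, 264.7, 291.5 and 266.7 in Ring1b-KO, and 436.8, 407.3 and 417.2 in Ring1a/b-dKO. They were at 559.7, 513.0 and 534.2 TPM in the Pcgf-4KO libraries, while those of Pcgf-6KO were at 1114.9, 1122.6 and 1076.1. These 5 groups did not overlap. As ratios of group means to WT the sums were 1.12 in Ring1b-KO, 1.72 in Ring1a/b-dKO, 2.2 in Pcgf-4KO and as much as 4.53 in Pcgf-6KO. With median ratio scaling, described below, they were 1.01, 1.34, 1.75 and 3.56. In Ring1a-KO the libraries were at 207.9, 477.7 and 284.5 TPM, from below WT to above Ring1a/b-dKO, and the highest was replicate 2, the library with the most untailed RNA. In bulk RNA a change in the number of cells that use a gene and a change of RNA per cell cannot be told apart.

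**Figure D1:**
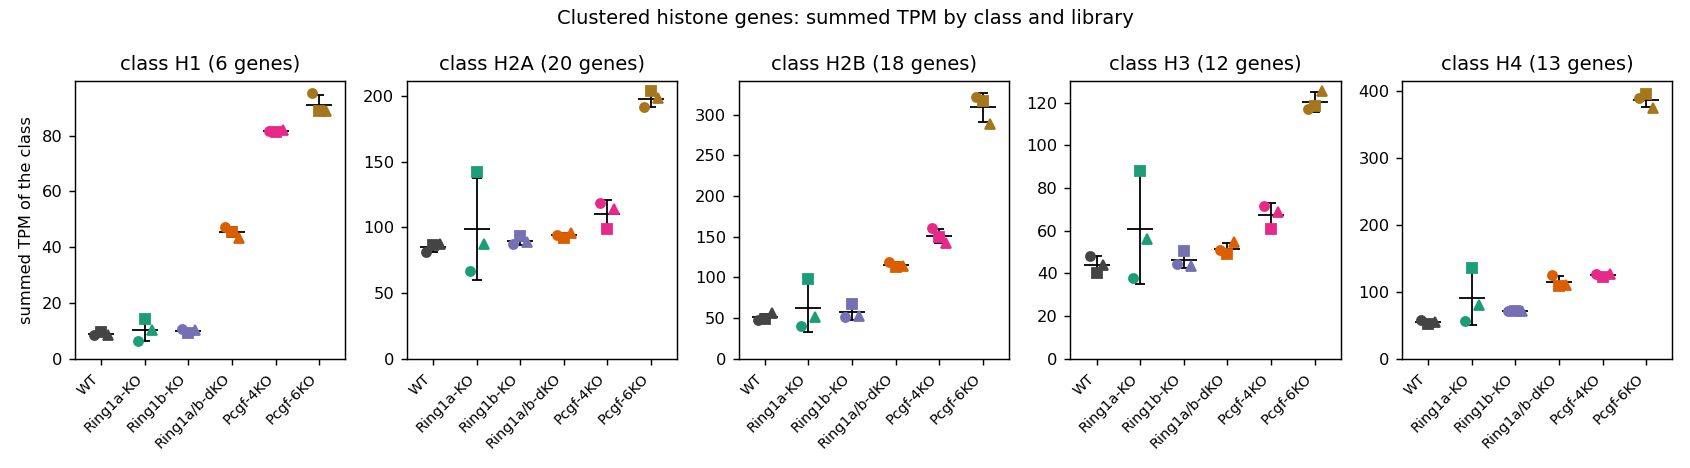
Summed TPM of the clustered histone genes by class in each genotype, with 1 point per library and bars for the mean ± SD (n = 3). The H1 sum steps up in Ring1a/b-dKO and Pcgf-4KO and the H4 sum mainly in Pcgf-6KO, while the Ring1a-KO libraries spread widely in every class.

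The classes moved by different amounts. H1 genes summed to 8.90 ± 0.69 TPM in WT (mean ± SD, n = 3, as for all group values here), 45.38 ± 1.88 in Ring1a/b-dKO, 81.71 ± 0.36 in Pcgf-4KO and reached 90.96 ± 3.64 in Pcgf-6KO, 5.1, 9.18 and 10.2 times the WT mean. H4 genes went from 55.19 ± 3.04 to 114.4 ± 9.42, 125.2 ± 2.53 and 386.1 ± 10.61 TPM in the same order, so that Pcgf-6KO was at 7 times WT. H2B genes followed with 50.99 ± 4.30 in WT, 115.2 ± 3.69, 151.1 ± 8.81 and 309.1 ± 17.60. H3 genes were at 44.06 ± 3.93 TPM in WT and 120.3 ± 4.58 in Pcgf-6KO, and H2A genes at 84.85 ± 3.42 and 198.0 ± 6.24, which are 2.73 and 2.33 times WT. H2A made up 34.8% of the summed histone TPM in WT and 17.9% in Pcgf-6KO, and H4 22.6% and 35%. H1 made up 3.65% in WT and 15.3% in Pcgf-4KO. Without the 2 genes that changed most in Ring1a/b-dKO, Hist1h2bc and Hist1h1c, the ratios of the whole sum to WT were 1.07 in Ring1b-KO, 1.4 in Ring1a/b-dKO, 1.57 in Pcgf-4KO and reached 3.7 in Pcgf-6KO.

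By group means, more members were detected than in WT in 4 of the 5 knockouts, Ring1b-KO being the exception. A group mean of 1 TPM was reached by 42 members in WT and in Ring1b-KO, 47 in Ring1a-KO and 48 in Ring1a/b-dKO. It was reached by 53 in Pcgf-4KO and by 61 in Pcgf-6KO. The Ring1a-KO mean includes replicates 2 and 3, where the members summed to 477.7 and 284.5 TPM, against 207.9 in replicate 1. The count of 47 was not repeated without those libraries. More of all tested genes also reached 1 TPM, with 14220 in WT, 15622 in Ring1b-KO and 15316 in Pcgf-4KO. The order of levels among the members changed as well. In WT the H4 gene Hist1h4i led with 33.68 TPM, followed by the H2A genes Hist1h2ad (16.99) and Hist1h2ag (16.82). In Pcgf-6KO the H2B gene Hist1h2bc led with 179.3 TPM, followed by the H4 genes Hist1h4n (101.0) and Hist1h4i (85.33). The median member was at 1.47 TPM in WT and 6.72 in Pcgf-6KO.

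Tests were made on log2(TPM + 1) with limma over all genes that reached 1 TPM in 3 libraries or more, which 61 of the 69 members passed. A gene was called at a Benjamini-Hochberg adjusted p under 0.05, and log2 differences on this scale understate the fold of genes near 1 TPM. The 8 members not tested were Hist1h1t, Hist1h2aj, Hist1h2al, Hist1h2ao, Hist2h2ab, Hist1h4m, Hist2h4 and Hist4h4. Of these, Hist1h4m was listed at 0 in all 18 libraries. Of the 61, 19 were below 1 TPM in WT. They passed only through knockout libraries, so their rises against WT, and against Pcgf-4KO where Pcgf-6KO carried them past the filter, are partly set by it, and counts over the 42 members that reach 1 TPM in WT are given as well. The comparisons share the WT libraries and are not independent of each other.

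In Pcgf-6KO, 51 of 61 tested members were called higher and 0 lower, with 0 below WT at an unadjusted p under 0.05 as well. Of all 17842 genes tested, 74.2% were called, 51.7% higher and 22.5% lower. Among the 42 members expressed at 1 TPM in WT, 33 were higher and 9 not called, and 46.7% of all genes at that level were higher. A rise of at least 2-fold was seen in 47 of the 61, against 23.7% of all genes. The median log2 difference was 1.43 over the 61 members and 0.33 over all genes. In Pcgf-4KO, 27 members were called higher and 2 lower, where 65% of all genes were called, 47.1% higher and 17.9% lower. In Ring1a/b-dKO, 21 were higher and 2 lower, where 64.4% of all genes were called, 48.6% higher and 15.8% lower. In both genotypes the share of members called was below that of all genes, and the count in Ring1a/b-dKO was 14 instead of 23 without its replicate 1. Of the 42 members expressed in WT, 16 and 15 were called higher in these 2 genotypes, against 45.3% and 46.9% of all genes at that level.

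Many genes outside the clusters were higher in Ring1a/b-dKO, Pcgf-4KO and Pcgf-6KO, and the median over all genes tested was 0.28, 0.25 and 0.33 on the log2 scale. Scaling the libraries to the median ratio of the tested genes brought these medians to 0.01, 0.00 and 0.05. The counts of members called higher and lower were then 11 and 4 in Ring1a/b-dKO, 21 and 3 in Pcgf-4KO, against 47 and 0 in Pcgf-6KO. Of all genes 32.8% and 31.5%, 32.4% and 32.1%, and 39.2% and 34.7% were called higher and lower in the same order. With quantile normalization the member counts were 7 and 9, 15 and 3, and 40 and 1. The shares of all genes were then 29.9% and 32.1%, 31.2% and 31.7%, and 33.7% and 38.6%. The median member in Ring1a/b-dKO turned from 0.37 to -0.04 with quantile normalization. For Ring1a/b-dKO the direction of the members as a group thus depended on the scaling. By class, the members higher and lower there were 4 and 0 of 5 H1, 4 and 1 of 16 H2A, 4 and 0 of 18 H2B, 3 and 1 of 12 H3 and 6 and 0 of 10 H4 genes as deposited. With quantile normalization they were 1 and 0, 0 and 3, 1 and 2, 1 and 3, and 4 and 1, where 29.9% of all genes were higher and 32.1% lower.

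**Figure D2:**
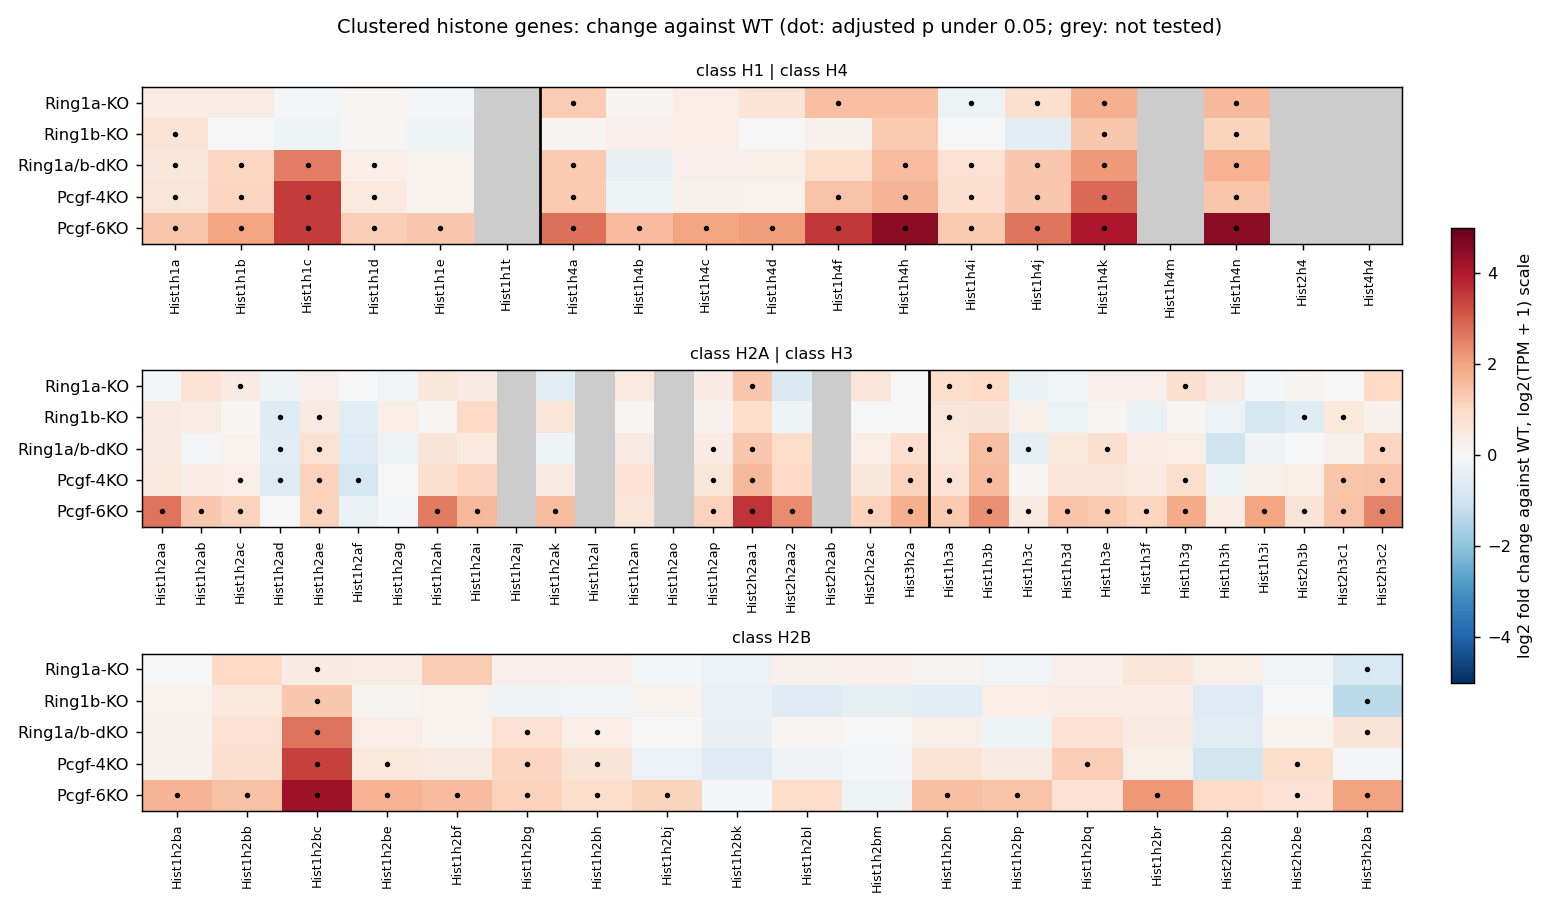
Log2 difference of each clustered histone gene from WT, with the 5 knockouts in rows and the members in columns by class. Colour runs from blue (lower) to red (higher), with a dot where the adjusted p was under 0.05 and grey where the gene was not tested. The Pcgf-6KO row is red in 51 called members, whereas Ring1a/b-dKO and Pcgf-4KO show a few strong members among pale ones.

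Linker histones bind the DNA between nucleosomes. Hist1h1c (chr13:23738808-23740367, + strand) made up most of the H1 RNA in Ring1a/b-dKO, Pcgf-4KO and Pcgf-6KO. It was at 5.75, 6.59 and 4.65 TPM in WT, 4.55, 5.24 and 5.76 in Ring1a-KO and 5.45, 4.17 and 4.60 in Ring1b-KO. In Ring1a/b-dKO it was at 39.52, 38.36 and 36.77 TPM, in Pcgf-4KO at 73.92, 73.86 and 74.86, and in Pcgf-6KO at 78.88, 74.20 and 69.72. The libraries of the RING knockouts with 1 gene lost overlapped WT, and all 9 libraries of the other 3 genotypes lay far above. The log2 differences from WT were 2.57 ± 0.10 (SE) in Ring1a/b-dKO (adjusted p = 1.14e-11), 3.51 ± 0.10 in Pcgf-4KO (adjusted p = 2.41e-13) and 3.51 ± 0.10 in Pcgf-6KO (adjusted p = 1.4e-13). Pcgf-6KO and Pcgf-4KO overlapped, with a difference of -0.00 ± 0.10 (adjusted p = 0.999).

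By TPM the other H1 genes were low. Hist1h1a was at 1.89 ± 0.29 TPM in WT and 6.48 ± 0.85 in Pcgf-6KO, a rise of 1.37 ± 0.22 (adjusted p = 5.13e-05). Its rises of 0.57 in Ring1a/b-dKO and 0.61 in Pcgf-4KO were not called under either scaling, and the first became -0.02 with quantile normalization. They also missed the threshold without WT replicate 2 (0.54 and 0.59) or WT replicate 3 (0.52 and 0.56), without any 1 of the Ring1a/b-dKO libraries (0.54 to 0.59), and without Pcgf-4KO replicate 1 or 2 (0.55 each). Hist1h1b was at 0.71 ± 0.56 TPM in WT and 5.50 ± 0.93 in Pcgf-6KO, where it rose by 1.97 ± 0.35. Its rises of 1.05 in Ring1a/b-dKO and 1.06 in Pcgf-4KO were not called under either scaling or without WT replicate 1 (0.81 and 0.82), Ring1a/b-dKO replicate 1 (0.90) or Pcgf-4KO replicate 3 (0.97). Hist1h1d and Hist1h1e stayed at 1.49 and 2.71 TPM even in Pcgf-6KO. Neither would have passed the filter on low values without the libraries of that genotype, so their levels are given with no test. Their models run on for 4884 and 1153 bases past the stem-loop, and TPM depends on the length of the model. The testis gene Hist1h1t did not exceed 0.73 TPM in any library.

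H2B pairs with H2A in the nucleosome core. Hist1h2bc (chr13:23684199-23692908, + strand) rose from WT through Ring1b-KO, Ring1a/b-dKO and Pcgf-4KO to Pcgf-6KO. Its WT libraries were at 7.41, 8.63 and 9.70 TPM, Ring1b-KO at 21.20, 24.55 and 23.12, and Ring1a/b-dKO at 65.27, 58.63 and 60.86. Pcgf-4KO followed at 104.9, 97.98 and 102.0 TPM and Pcgf-6KO at 187.4, 183.2 and 167.3. None of these 5 groups overlapped. The rise over WT was 1.33 ± 0.12 in Ring1b-KO (adjusted p = 1.45e-07), 2.71 ± 0.12 in Ring1a/b-dKO, 3.43 ± 0.12 in Pcgf-4KO and as much as 4.24 ± 0.12 in Pcgf-6KO (adjusted p = 5.93e-14). Each step was itself called where it was tested: 1.39 ± 0.12 between Ring1a/b-dKO and Ring1b-KO (adjusted p = 7.48e-08) and 0.81 ± 0.12 between Pcgf-6KO and Pcgf-4KO (adjusted p = 2.85e-05). Ring1a-KO was at 13.40, 12.90 and 9.09 TPM, the last within WT, and rose by 0.41 ± 0.12 (adjusted p = 0.0188). This was not called without WT replicate 1 (0.32), Ring1a-KO replicate 1 (0.31) or Ring1a-KO replicate 2 (0.34), nor in a fit of only these 2 groups (0.41). With Ring1a-KO replicate 1 as the sole library of its genotype the difference was 0.59 (adjusted p = 0.00494).

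Hist3h2ba (chr11:58948920-58949533, + strand), the H2B gene of the Hist3 cluster, moved in opposite directions. It was at 10.96, 10.21 and 12.50 TPM in WT, 7.58, 6.18 and 5.03 in Ring1a-KO and 4.11, 4.99 and 2.93 in Ring1b-KO, both below every WT library. It was at 18.34, 18.31 and 16.79 TPM in Ring1a/b-dKO and 53.52, 49.27 and 43.43 in Pcgf-6KO, both above WT, and at 12.64, 11.90 and 7.33 in Pcgf-4KO, which overlapped WT. The fall was -0.76 ± 0.18 in Ring1a-KO (adjusted p = 0.00761) and -1.30 ± 0.18 in Ring1b-KO (adjusted p = 2.68e-05). The rise was 2.02 ± 0.18 in Pcgf-6KO (adjusted p = 8.22e-08). In Ring1a/b-dKO it rose by 0.63 ± 0.18 over WT (adjusted p = 0.00776), a call lost under both scalings (0.29 and 0.27), and by 1.93 ± 0.18 over Ring1b-KO (adjusted p = 3.39e-07). Without Ring1a-KO replicates 2 and 3 its fall in Ring1a-KO was -0.51 and not called (adjusted p = 0.247).

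Most other H2B genes stayed below 10 TPM outside Pcgf-6KO. Hist1h2bj was at 8.88 ± 1.29 TPM in WT and 20.03 ± 1.46 in Pcgf-6KO, a rise of 1.10 ± 0.20 (adjusted p = 0.000124), and was not called in the other 4 knockouts. In all, 13 of 18 H2B genes were called higher in Pcgf-6KO, 6 in Pcgf-4KO and 4 in Ring1a/b-dKO, against 51.7%, 47.1% and 48.6% of all genes, so that the last 2 counts were below the share of all genes. Of the 9 H2B genes at 1 TPM in WT, 5, 2 and 3 were called higher. The 5 not called in Pcgf-6KO were Hist1h2bk, Hist1h2bl, Hist1h2bm, Hist1h2bq and Hist2h2bb.

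**Figure D3:**
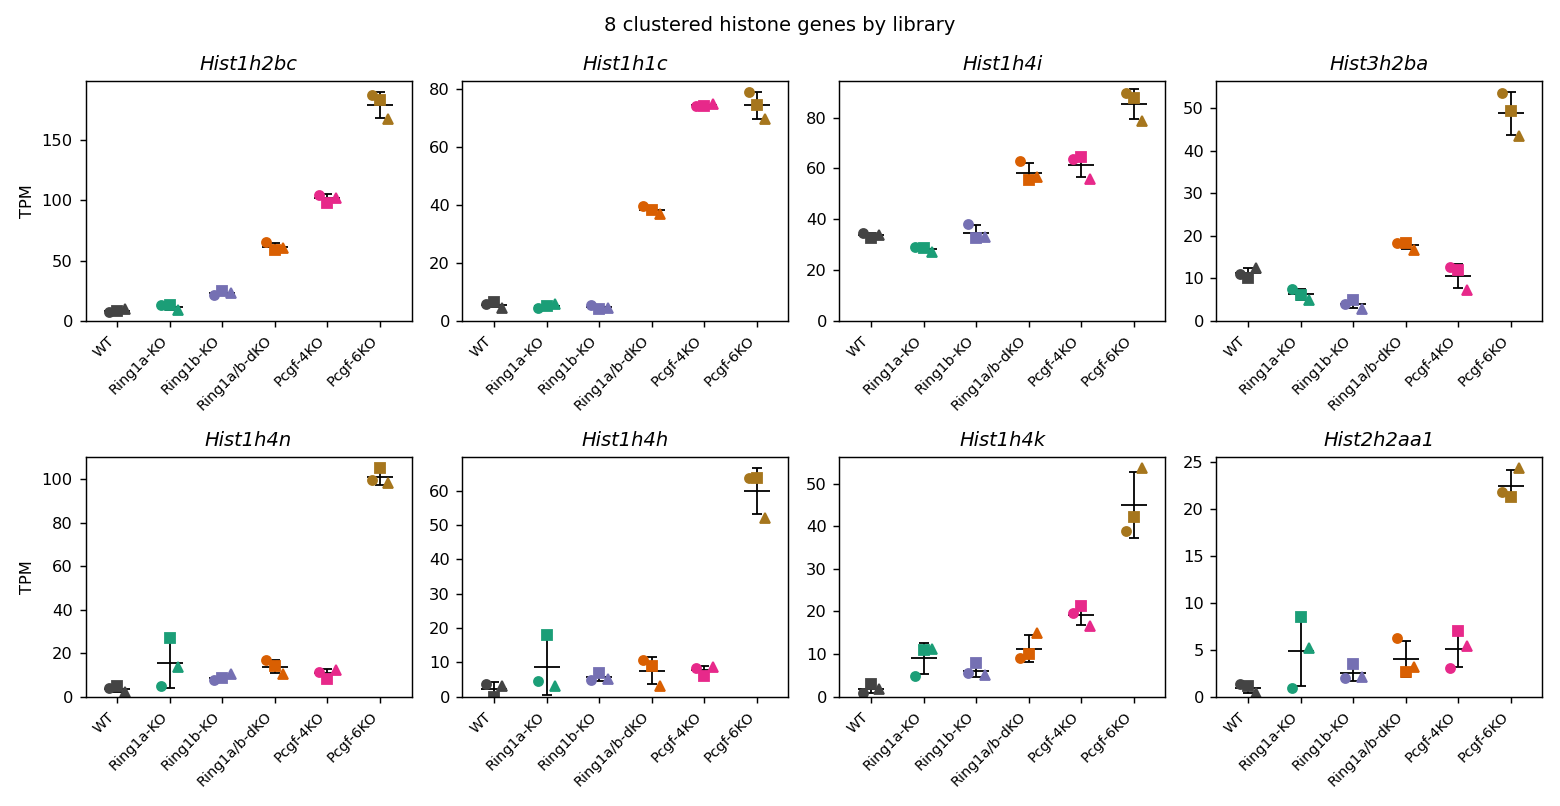
TPM of 8 clustered histone genes in each of the 18 libraries, with bars for the mean ± SD of each genotype (n = 3) and a separate axis per gene. Hist1h1c and Hist1h2bc are already high in Ring1a/b-dKO and Pcgf-4KO, whereas Hist1h4n, Hist1h4h and Hist2h2aa1 stand far highest in Pcgf-6KO, and Hist3h2ba dips in Ring1a-KO and Ring1b-KO.

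H4 forms the core of the nucleosome together with H3, and all 10 tested H4 genes were called higher in Pcgf-6KO than in WT and also than in Pcgf-4KO, where 51.7% and 28.8% of all genes were. Of these, 9 were at 1 TPM in WT. The median log2 difference from WT was 2.73 for H4, compared with 1.26 to 1.37 for the other 4 classes. Hist1h4n (chr13:21831767-21832196, - strand) was at 3.88, 4.73 and 2.09 TPM in WT, 16.94, 14.06 and 10.67 in Ring1a/b-dKO, 11.46, 8.37 and 12.45 in Pcgf-4KO and reached 99.46, 105.2 and 98.28 in Pcgf-6KO. The 3 mutants were all above WT and Pcgf-6KO far above the rest. Its rise over WT was 4.53 ± 0.39 in Pcgf-6KO (adjusted p = 4.64e-08), 1.73 ± 0.39 in Ring1a/b-dKO and 1.39 ± 0.39 in Pcgf-4KO, and Pcgf-6KO exceeded Pcgf-4KO by 3.13 ± 0.39 (adjusted p = 8.63e-06).

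Hist1h4h was at 3.80, 0 and 3.00 TPM in WT and at 63.58, 63.77 and 52.05 in Pcgf-6KO, which rose by 4.50 ± 0.58 (adjusted p = 4.12e-06). Its WT replicate 2 is listed at 0. Its rises of 1.55 in Ring1a/b-dKO and 1.69 in Pcgf-4KO were not called without that library (0.84 and 0.98), nor with quantile normalization (1.08 and 1.36) or in a fit of only the 2 groups. The first was not called with median ratio scaling (1.31), without a filter on low values, or without Ring1a/b-dKO replicate 1 (1.27) or 2 (1.37), and the second was not called without Pcgf-4KO replicate 3 (1.61). Hist1h4k, whose model holds no stem-loop, was at 0.96, 2.88 and 1.84 TPM in WT, 9.07, 9.94 and 14.86 in Ring1a/b-dKO, 19.70, 21.33 and 16.62 in Pcgf-4KO and reached 38.94, 42.23 and 53.66 in Pcgf-6KO. Like Hist1h2bc it increased at every step without overlap, by 2.11 ± 0.29, 2.85 ± 0.29 and 4.03 ± 0.29 over WT (adjusted p = 1.09e-05, 4.33e-07 and 4.92e-09). Ring1b-KO, at 5.46, 7.86 and 5.13 TPM, was above WT as well, by 1.34 ± 0.29 (adjusted p = 0.00119). Unlike that of Hist1h2bc, the step from Ring1b-KO to Ring1a/b-dKO was not called under either scaling (0.59 and 0.52) or without a filter on low values (0.77). It was also lost without Ring1b-KO replicate 1 (0.71), Ring1b-KO replicate 3 (0.67) or Ring1a/b-dKO replicate 3 (0.57).

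Hist1h4i (chr13:22040636-22041362, - strand), the highest member in WT, changed least among the H4 genes in Pcgf-6KO but with a small error. It was at 34.67, 32.60 and 33.77 TPM in WT, 62.77, 55.27 and 56.48 in Ring1a/b-dKO, 63.66, 64.55 and 55.97 in Pcgf-4KO and reached 89.74, 87.55 and 78.70 in Pcgf-6KO. WT lay below all 9 mutant libraries, while Ring1a/b-dKO and Pcgf-4KO overlapped each other. The rises were 0.77 ± 0.07, 0.84 ± 0.07 and 1.31 ± 0.07 (adjusted p = 2.22e-07, 7.89e-08 and 2.72e-10). Hist1h4j, also a model that runs on past the stem-loop, was at 1.88, 2.61 and 1.80 TPM in WT, 7.07, 6.06 and 7.46 in Ring1a/b-dKO, 5.76, 6.61 and 8.44 in Pcgf-4KO and reached 15.91, 19.63 and 21.39 in Pcgf-6KO, with rises of 1.35, 1.35 and 2.69 (each ± 0.27). Hist1h4f, at 1.06 ± 0.69 TPM in WT, was at 22.15 ± 5.05 in Pcgf-6KO, a rise of 3.52 ± 0.45 (adjusted p = 3.68e-06).

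H2A is the substrate of PRC1, and its clustered genes had the smallest summed ratio to WT in Pcgf-6KO. The 3 highest were at similar levels in WT and took different courses. Hist1h2ad was at 15.53, 17.92 and 17.52 TPM in WT, 11.74, 8.46 and 11.66 in Ring1b-KO, 8.42, 9.87 and 13.49 in Pcgf-4KO, while Pcgf-6KO was at 13.95, 18.21 and 19.90. It fell by 0.64 in Ring1b-KO (SE 0.18, adjusted p = 0.00807) and by 0.65 in Pcgf-4KO (SE 0.18, adjusted p = 0.00517), with every library below WT, and overlapped WT in Pcgf-6KO at 0.02 ± 0.18 (adjusted p = 0.939). Its fall in Ring1a/b-dKO, by 0.54, was not called when WT replicate 2, Ring1a/b-dKO replicate 2 or Ring1a/b-dKO replicate 3 was left out (-0.50, -0.48 and -0.44). Hist1h2ag was called in none of the 5 comparisons with WT: it was at 16.82 ± 1.15 TPM in WT and 16.26 ± 3.24 in Pcgf-6KO, with all groups overlapping WT. Hist1h2ap rose by 1.17 ± 0.17 in Pcgf-6KO (adjusted p = 1.59e-05), from 15.02, 13.43 and 12.75 TPM to 32.07, 37.58 and 27.35, without overlap. Of the sequence of Hist1h2ap, 93.1% of the 50-base windows also occur in other genes, so reads could have been divided between the copies in several ways.

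Hist1h2ae, whose model runs on past the stem-loop, was at 7.18, 6.21 and 7.85 TPM in WT, 10.94, 12.42 and 15.05 in Ring1a/b-dKO, 18.42, 15.77 and 16.17 in Pcgf-4KO and reached 17.04, 19.11 and 13.72 in Pcgf-6KO. As with Hist1h1c, Pcgf-4KO and Pcgf-6KO overlapped, and WT lay below all of them. The rises were 0.77 ± 0.15, 1.14 ± 0.15 and 1.12 ± 0.15, the first lost with quantile normalization (0.33). Hist2h2aa1, of the Hist2 cluster, was at 1.40, 1.11 and 0.35 TPM in WT and 21.80, 21.30 and 24.39 in Pcgf-6KO, a rise of 3.63 ± 0.45 (adjusted p = 2.77e-06). Of 16 tested H2A genes, 12 were called higher in Pcgf-6KO, 5 in Pcgf-4KO and 4 in Ring1a/b-dKO, against the same shares of all genes as for H2B (51.7%, 47.1% and 48.6%), and the last 2 counts were again below them. Of the 12 at 1 TPM in WT, 8, 2 and 2 were called higher. The 4 not called in Pcgf-6KO were Hist1h2ad, Hist1h2af, Hist1h2ag and Hist1h2an.

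Among H3 genes, 11 of 12 were called higher in Pcgf-6KO, against 51.7% of all genes. Of the 10 at 1 TPM in WT, 9 were higher, Hist1h3h being the other, against 46.7% of all genes at that level. Hist1h3g was at 5.58, 5.64 and 6.11 TPM in WT, 11.80, 8.98 and 14.12 in Pcgf-4KO and reached 22.74, 24.58 and 23.23 in Pcgf-6KO, rises of 0.88 ± 0.19 and 1.86 ± 0.19 (adjusted p = 0.000658 and 2.4e-07) without overlap. Hist1h3b was at 1.43 ± 0.73 TPM in WT, 5.75 ± 1.53 in Ring1a/b-dKO, 6.22 ± 1.29 in Pcgf-4KO and reached 10.62 ± 1.54 in Pcgf-6KO, where it rose by 2.29 ± 0.32. Hist1h3c, the highest H3 gene, was at 12.31, 16.76 and 10.60 TPM in WT, 7.83, 10.89 and 8.87 in Ring1a/b-dKO, which overlapped WT, and 18.03, 17.76 and 18.84 in Pcgf-6KO. Its fall in Ring1a/b-dKO by 0.47 was not called without WT replicate 2 (-0.30) or Ring1a/b-dKO replicate 1 (-0.37) or in a fit of only the 2 groups, and its rise of 0.46 in Pcgf-6KO was not called under either scaling (0.13 and 0.08) or without WT replicate 3 (0.32). Hist1h3c fell by 0.76 between Ring1b-KO, at 15.39, 18.06 and 15.12 TPM, and Ring1a/b-dKO (SE 0.15, adjusted p = 0.000521).

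Sorting the members by their transcript models separated the genotypes in another way. The 23 genes whose model runs on past the stem-loop summed to 74.88 ± 2.93 TPM in WT, 165.4 ± 4.01 in Ring1a/b-dKO, 206.9 ± 6.36 in Pcgf-4KO and reached 326.0 ± 13.60 in Pcgf-6KO, or 2.21, 2.76 and 4.35 times WT. The 23 whose model stops there summed to 117.9 ± 2.08, 142.9 ± 8.39, 159.3 ± 14.53 and 443.3 ± 10.60 TPM, or 1.21, 1.35 and 3.76 times WT. The 23 with no stem-loop in the model were at 51.26 ± 2.57 TPM in WT and at 2.19, 3.31 and 6.54 times that. Single genes weigh heavily in these sums. Hist1h2bc, with no stem-loop in its model, went from 8.58 TPM in WT to 61.59, 101.6 and 179.3 in the same order. Hist1h1c, whose model runs on, went from 5.66 to 38.22, 74.21 and 74.27 TPM. In Ring1a/b-dKO, 12 of 20 tested genes that run on were called higher and 0 lower, as against 5 higher and 2 lower of 21 that stop at the stem-loop. Of all genes 48.6% were higher and 15.8% lower. In Pcgf-4KO the counts were 13 and 0, and 8 and 1, where 47.1% and 17.9% of all genes were called. In Pcgf-6KO 20 of 20 and 17 of 21 were higher, against 51.7%. Of the genes that run on, 9 entered only through knockout libraries. Over those at 1 TPM in WT, the counts higher were 8 of 11 against 4 of 18 in Ring1a/b-dKO, 6 of 11 against 7 of 18 in Pcgf-4KO and 11 of 11 against 14 of 18 in Pcgf-6KO. With median ratio scaling the summed ratios in Ring1a/b-dKO were 1.72 for genes that run on and 0.945 for those that stop, so that the second turned direction, and 6 and 0, and 3 and 3, were called. With quantile normalization 3 and 0, and 2 and 5, were called. Of all genes 32.8% were higher and 31.5% lower there with median ratio scaling, and 29.9% and 32.1% with quantile normalization. The difference between the 2 kinds of model was not tested. A gene model is no measurement of where the RNA of these cells ended.

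Against Ring1b-KO, Ring1a/b-dKO had 16 members called higher and 2 lower, Hist1h2ag and Hist1h3c, while 59.9% of all genes were called, 41.1% higher and 18.8% lower. With quantile normalization the counts were 11 and 4, where 30.9% of all genes were higher and 28.5% lower. Of the 16, 11 were among the 20 genes that run on past the stem-loop and 1 was among the 21 that stop at it. These were 8 and 0 with median ratio scaling, and 9 and 0 with quantile normalization, where 30.2% and 30.9% of all genes were higher. Hist1h1c differed by 2.78 ± 0.10 (adjusted p = 9.58e-12), Hist1h4j by 1.89 ± 0.27 (adjusted p = 1.84e-05) and Hist1h4i by 0.74 ± 0.07 (adjusted p = 5.65e-07). Against Pcgf-4KO, Pcgf-6KO had 37 members higher and 0 lower, where 52.8% of all genes were called, 28.8% higher and 24% lower; 0 members were below at an unadjusted p under 0.05 as well. Of the 53 members that reach 1 TPM in Pcgf-4KO 30 were higher, and 26.6% of all genes at that level. The median member was 0.83 higher on the log2 scale and the median of all genes 0.03. By class the members higher were 4 of 5 H1, 8 of 16 H2A, 9 of 18 H2B, 6 of 12 H3 and 10 of 10 H4 genes. Some of these passed the filter only through the Pcgf-6KO libraries. Over members at 1 TPM in Pcgf-4KO the counts were 2 of 3, 6 of 14, 6 of 14, 6 of 12 and 10 of 10. The H4 median was 1.77. Hist3h2ba rose by 2.13 ± 0.18 between them (adjusted p = 1.77e-07).

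**Figure D4:**
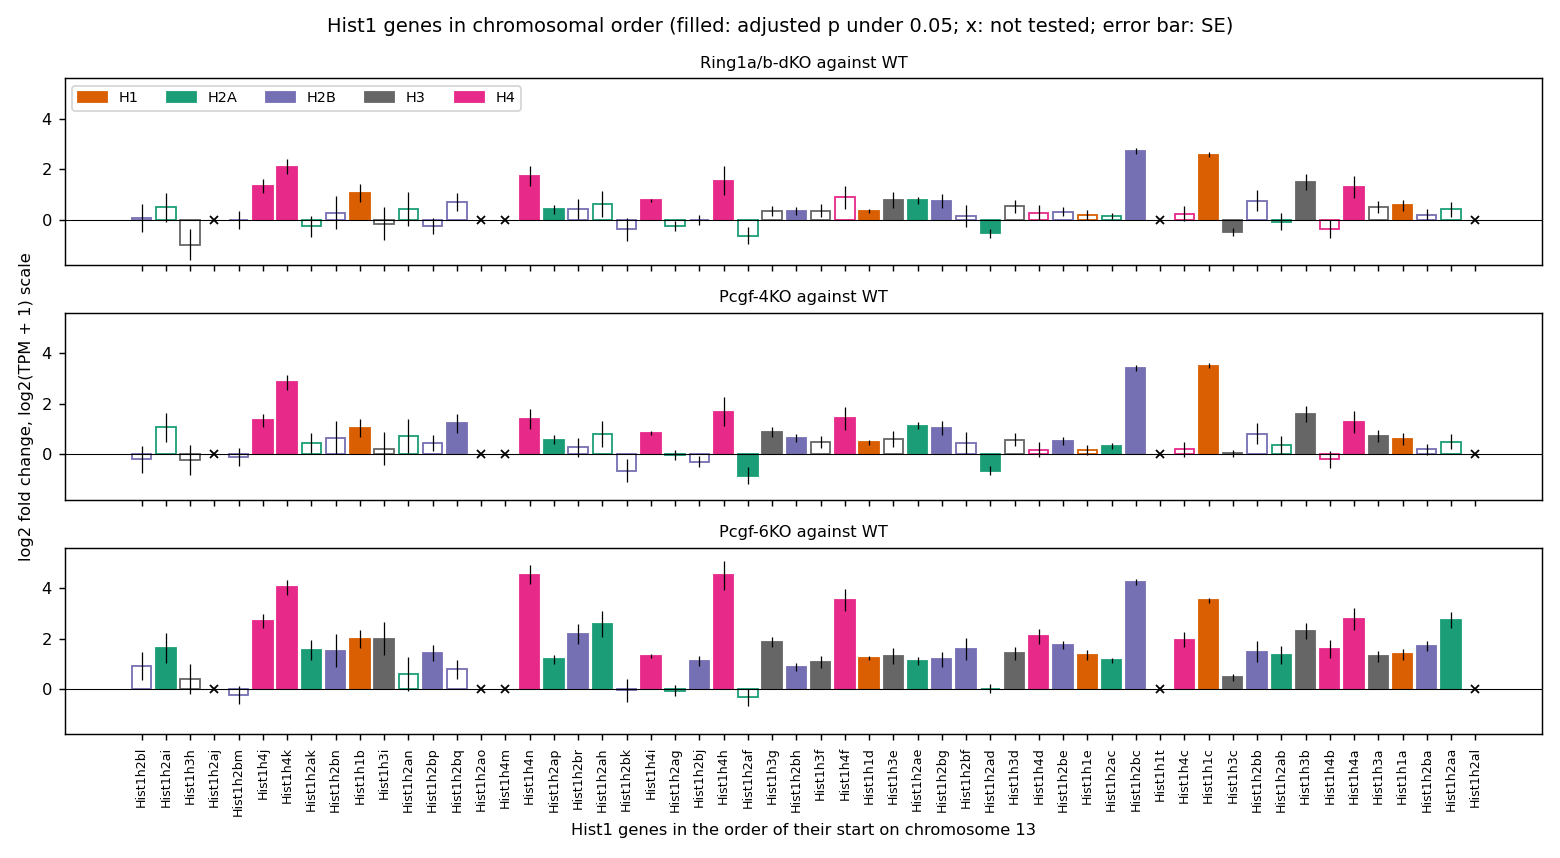
Log2 difference from WT of the 56 Hist1 genes in their order along chromosome 13, in Ring1a/b-dKO, Pcgf-4KO and Pcgf-6KO, with bars for the SE, filled where called and a cross where not tested. Hist1h1c and Hist1h2bc stand out in Ring1a/b-dKO and Pcgf-4KO between neighbours near 0, and in Pcgf-6KO raised genes occur along the whole cluster.

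In Ring1b-KO, 7 members were called higher and 3 lower, where 51.8% of all genes were called, 34.7% higher and 17.1% lower. Quantile normalization gave 2 and 12, where 24.1% of all genes were higher and 27.8% lower. The rises of Hist1h2bc and Hist1h4k and the falls of Hist3h2ba and Hist1h2ad are described above. Hist1h4n was at 7.52, 8.43 and 10.29 TPM in Ring1b-KO, above every WT library, a rise of 1.13 ± 0.39 (adjusted p = 0.0254) that was not called with quantile normalization (0.88, adjusted p = 0.0718), without a filter on low values, or without WT replicate 3 (0.87), Ring1b-KO replicate 2 (1.15) or Ring1b-KO replicate 3 (1.02). Hist1h2ae rose by 0.45 ± 0.15 (adjusted p = 0.0175), and this was not called under either scaling (0.32 and 0.27) or without WT replicate 2 (0.38), Ring1b-KO replicate 2 (0.41) or Ring1b-KO replicate 3 (0.42). The count of 10 members called was 5 without Ring1b-KO replicate 3.

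In Ring1a-KO, 11 members were called higher and 2 lower, where 23.1% of all genes were called, 12.3% higher and 10.8% lower. The count of 13 was 6 without Ring1a-KO replicate 2, 21 without Ring1a-KO replicate 1 and 7 without WT replicate 3. Without Ring1a-KO replicates 2 and 3 the counts were 1 and 3, the summed level was 0.852 times WT instead of 1.33 times, and of the 13 calls only that of Hist1h2bc was made again, with 1 library in the genotype. Of the 10 tested H4 genes, 8 were highest in replicate 2, the library richest in untailed RNA: Hist1h4n was at 5.01, 27.04 and 13.89 TPM in Ring1a-KO replicates 1, 2 and 3, and Hist1h4j at 2.32, 7.50 and 4.46. The others were Hist1h4i, at 28.92, 28.63 and 27.33 TPM, and Hist1h4k. In the same order the ribosomal RNA genes summed to 748.8, 12888.9 and 5180.6 TPM, against 1516.3 to 2079.8 in WT, and Rn7sk was at 17.86, 639.4 and 161.4. Hist1h4k was above WT in each library, at 4.83, 10.91 and 11.22 TPM, a rise of 1.77 ± 0.29 (adjusted p = 0.00043), which without those 2 libraries was 1.07 (adjusted p = 0.0625).

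**Figure D5:**
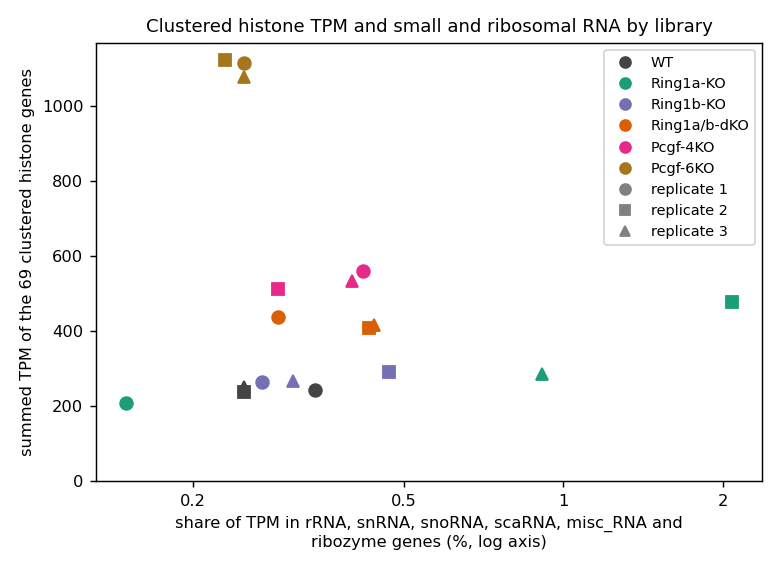
Summed TPM of the clustered histone genes in each library against the percent of its TPM in genes of ribosomal, small nuclear, small nucleolar and related RNAs (log scale), coloured by genotype. Ring1a-KO replicates 2 and 3 lie far to the right at 2.08% and 0.91%, and the Pcgf-6KO libraries have the highest histone sums at 0.23% to 0.25%.

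The interaction term asks whether Ring1a/b-dKO differs from the sum of Ring1a-KO and Ring1b-KO on the log2 scale. It was called in 6 of 61 members, 5 above the sum and 1 below, while 48.7% of all genes were called, 33.2% above and 15.5% below. The split was 4 above and 4 below with median ratio scaling, 5 and 4 with quantile normalization, 6 and 4 with values scaled to nuclear protein-coding genes, and 12 and 0 without Ring1a-KO replicates 2 and 3. It was also 12 and 0 without Ring1a-KO replicate 2 alone, and 4 and 12 without Ring1a-KO replicate 1. Of all genes 25.3% were above and 23.6% below with median ratio scaling, and 26.3% and 22.8% with quantile normalization. With values scaled to nuclear protein-coding genes these shares were 33.8% and 18.7%. Hist1h1c exceeded the sum by 2.88 ± 0.15 (adjusted p = 8.17e-10) and Hist3h2ba by 2.69 ± 0.26 (adjusted p = 7.99e-07). For Hist1h1c neither RING knockout alone was called and the combined one was at 38.22 ± 1.38 TPM. For Hist3h2ba both alone were below WT and the combined one above. Hist1h2bc exceeded the sum by 0.98 ± 0.16 and Hist1h4i by 0.98 ± 0.10 (adjusted p = 0.000153 and 2.14e-06). These 4 calls held without each of the 12 libraries in turn. With 1 Ring1a-KO library, replicate 1, the values were 3.03, 2.44, 0.79 and 0.95 in the same order.

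The members hold 14 head-to-head pairs on opposite strands, 13 of them an H2A with an H2B gene, whose partners share the bases between their starts. Both partners were tested in 12 pairs, and in Pcgf-6KO both were called higher in 7 of these and 1 of the pair in the other 5. Singly, 83.6% of the tested members and 51.7% of all genes were called higher there. Hist1h2ac, Hist1h2aa and Hist1h2ba, counted here as called, passed the filter only through the Pcgf-6KO libraries, so the count of pairs is partly set by it. In the 2 pairs with an untested partner, Hist1h2bm and Hist1h2bq were tested and not called. Across the 250 bases printed above the levels were far apart. Hist1h2bc went from 8.58 TPM in WT to 179.3 in Pcgf-6KO, and Hist1h2ac, on the other side, from 0.09 to 1.39 TPM. Hist1h2ac passed the filter only through the Pcgf-6KO libraries, so its level is given with no test. Its model is 2482 bases long, 2010 of them past the stem-loop, and its TPM depends on that length. Hist1h2ag was not called, at 16.82 and 16.26 TPM while its partner Hist1h2bj went from 8.88 to 20.03. Hist1h2ah rose from 1.53 to 13.83 TPM (2.58 ± 0.51, adjusted p = 0.00033), while its partner Hist1h2bk was at 7.19 and 6.84 (-0.05 ± 0.45, adjusted p = 0.932). The share of windows that occur in other genes was 90.7% for Hist1h2ah, 74.2% for Hist1h2bk, 78.9% for Hist1h2ag and 59.4% for Hist1h2bj.

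Hist1h2aa and Hist1h2ba, a head-to-head pair known as testis histone genes, stood highest in Pcgf-6KO. They passed the filter on low values only through the libraries of that genotype, so their levels are given with no test. Hist1h2aa was at 0, 0 and 0.45 TPM in WT, at most 1.47 in the other knockouts, and 7.63, 4.60 and 7.85 in Pcgf-6KO. Hist1h2ba was listed at 0 in all WT libraries, was at most 0.53 TPM in the other knockouts, and was at 1.69, 3.05 and 2.18 in Pcgf-6KO. For both genes the Pcgf-6KO libraries lay above the other 15. The 6 spermatogenic markers Prm1, Prm2, Tnp1, Tnp2, Acrv1 and Acr summed to 0.03 to 1.26 TPM per library, and none reached a mean of 1 TPM in any group.

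The genes outside Hist1 were mostly low in WT. Hist2h2aa2, all of whose windows occur in another gene, was at 3.73, 4.63 and 7.65 TPM in WT and 31.18, 31.23 and 29.78 in Pcgf-6KO, a rise of 2.37 ± 0.58 (adjusted p = 0.00164). Hist2h3c2 went from 0.60 ± 0.53 to 7.57 ± 0.19 TPM (2.48 ± 0.38, adjusted p = 2.8e-05). Hist2h3c1 and Hist2h2be were highest in Pcgf-4KO and Pcgf-6KO alike: Hist2h3c1 went from 0.08 ± 0.08 TPM to 1.80 ± 0.24 in the first and 1.94 ± 0.40 in the second. Hist2h2be rose by 0.89 ± 0.10 in Pcgf-4KO and by 0.72 ± 0.10 in Pcgf-6KO, the second not called with quantile normalization (0.10). Hist3h2a was at 0.09 ± 0.15 TPM in WT and 2.74 ± 0.77 in Pcgf-6KO (1.77 ± 0.26, adjusted p = 1.46e-05). It overlaps Trim17 on the same strand, which went from 2.54 to 62.68 TPM, so its reads cannot be told apart from those of Trim17 where the 2 genes overlap.

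Near-identical copies limit what can be said of single members. In 34 of the 69 genes at least 50% of the 50-base windows occur in another gene, among them Hist1h4n (85.6%), Hist1h4k (71.5%), Hist2h2aa1 (89.4%) and Hist1h2ad (67.1%), whose single levels are therefore uncertain. The share was 8.5% for Hist1h1c, 22.1% for Hist3h2ba, 28.9% for Hist1h4i and 30.1% for Hist1h2bc. The rises in Pcgf-6KO were not confined to them: 30 of 31 tested members with under 50% of windows shared were called higher, and 21 of 30 with 50% or more. Of all genes 51.7% were higher there. Over members at 1 TPM in WT the counts were 17 of 18 and 16 of 24, against 46.7% of all genes at that level. Whether reads were assigned by strand is not stated, and 19 members overlap an annotated miRNA gene on the other strand, the highest of which was at 24.38 TPM in Pcgf-6KO and at 0.00 in WT.

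Genes of S phase and of histone supply outside the clusters were read from lists of related genes. Of 31 S phase and G1/S genes, 28 were called lower and 2 higher in Pcgf-6KO, with a median of -0.62, where 22.5% of all genes were lower and the median of all genes was 0.33. In Ring1a/b-dKO 21 were lower and 3 higher, and in Pcgf-4KO 16 and 5, where 15.8% and 17.9% of all genes were lower. Mcm3, of the replicative helicase, was at 291.5 TPM in WT and 118.5 in Pcgf-6KO (-1.29 ± 0.05). Uhrf1, which maintains DNA methylation at replication, was at 177.3 and 71.51 TPM (-1.31 ± 0.07). Of 27 genes of histone transcription and 3′ end processing, 10 were higher and 12 lower in Pcgf-6KO, against 51.7% and 22.5% of all genes. Slbp, the stem-loop binding protein, fell by 0.63 in Pcgf-6KO (SE 0.05, adjusted p = 2.04e-08), from 128.1 to 82.75 TPM, and was also called lower in Ring1a/b-dKO (113.0 TPM) and Pcgf-4KO (110.6 TPM). Npat, the activator of clustered histone genes at the histone locus body, differed by 0.11 ± 0.10 in Pcgf-6KO (adjusted p = 0.329) and rose by 0.26 ± 0.10 in Ring1a/b-dKO and 0.37 ± 0.10 in Pcgf-4KO. The median of all genes was 0.28 in Ring1a/b-dKO and 0.25 in Pcgf-4KO, so the first rise was no larger than that median. Hinfp, which activates H4 promoters, rose by 0.75 ± 0.16 in Pcgf-6KO (adjusted p = 0.000565), from 11.79 to 20.90 TPM, and Lsm11, of the U7 particle, by 0.35 ± 0.08, from 7.16 to 9.45. The rise of Lsm11 was close to the median of all genes there, 0.33. Values of the genes on these lists under the other scalings are not given here.

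Of 20 replication-independent histone genes, which lie outside the clusters and have polyadenylated mRNAs, 13 were tested, and in Pcgf-6KO 4 were higher and 6 lower. Of all genes 51.7% were higher there and 22.5% lower, which are the shares to set beside each count of this paragraph. H2afz, which encodes the variant H2A.Z, fell in Ring1a/b-dKO, Pcgf-4KO and Pcgf-6KO: its mean of 1533.7 TPM in WT compared with 720.4 in Ring1a/b-dKO, 738.8 in Pcgf-4KO and only 458.0 in Pcgf-6KO (-1.74 ± 0.04). That is above the summed level of all 20 clustered H2A genes in every one of these groups. Clustered histone mRNAs normally carry no tail and poly(A) selection is unknown, so the 2 kinds of RNA may not have been captured alike. H1f0, the linker histone of differentiated cells, went from 30.22 TPM to 93.26, 97.50 and 77.93 in the same order, rises of 1.59, 1.66 and 1.34 (each ± 0.06). H3f3b, for the variant H3.3, rose by 1.08 ± 0.04 in Pcgf-4KO, from 800.0 to 1696.4 TPM. Among 27 histone chaperones 7 were higher and 16 lower in Pcgf-6KO: Nasp, which carries H3 and H4, fell by 1.60 (SE 0.06), from 598.3 to 197.4 TPM, and Daxx, a chaperone of H3.3, rose by 1.20 ± 0.06, from 53.12 to 123.4. Of 11 genes of the poly(A) machinery 3 were higher and 6 lower. Of 20 ubiquitin enzymes that act on H2A or H2B outside PRC1, 6 were higher and 4 lower, among them Usp16, which removes ubiquitin from H2A, at 38.53 TPM in WT and 91.28 in Pcgf-6KO (1.24 ± 0.13).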

How the data were processed

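RNA from 18 libraries of mouse embryonic stem cells, 3 for each of 6 genotypes, was measured by sequencing. The authors deposited TPM values per gene and library, with 56551 genes, and 6 columns of group means that were not used. TopHat2 2.1.1, RSEM, edgeR and the build GRCm38.p5 are named in the submitters' processing notes, while the role of each tool, the annotation release and the strand setting were not given in the sources used here. TPM columns sum to 1000000 within rounding and keep no read counts, so no counting interval could be given.

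Values were tested as log2(TPM + 1) with limma 3.58.1 in R 4.3.3 (moderated test with an intensity trend, 18 libraries in 1 model, 12 residual degrees of freedom). Genes at 1 TPM in at least 3 libraries entered, 17842 in all, and p-values were adjusted over all of them within each comparison by the Benjamini-Hochberg method. The code was tested on simulated data with known changes. Gene positions and transcripts are from GENCODE M21, promoters from RefSeq (GRCm38.p6), and motifs were matched as exact letters in Python 3.11.15. Members and gene lists were chosen with earlier results of these data known. Genes were named by rule: the 3 highest of each class, the 5 largest called rises and falls of each comparison at 5 TPM or more without overlap, the 3 largest interactions each way, the testis genes, and Hist2 to Hist4 genes at 1 TPM or more. From each list of related genes the rule took the 2 largest called changes each way, plus a few fixed genes such as Slbp and Npat. Members that were not called, partners in pairs, Hist1h1d, Hist1h1e, Hinfp and Lsm11 were named after their values were seen. Alternatives were pseudocounts of 0.5 and 0.1, no filter and a filter at 5 TPM, median ratio scaling, quantile normalization, rescaling to nuclear protein-coding genes, a fit of only the groups compared, a replicate block and leaving out each library. Leaving out Ring1a-KO replicates 2 and 3 together was added after seeing the data, and leaves that genotype 1 library, whose spread is then taken from the remaining groups. Counts by class and transcript model under the scalings were also added then.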

Additional observations from a re-analysis of the deposited data

Results flagged for a closer look

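In 6 clustered histone genes Ring1a/b-dKO differed from the sum of the Ring1a-KO and Ring1b-KO effects by the test of that difference itself (interaction term, limma, Benjamini-Hochberg adjusted over all genes). The log2 differences were 2.88 for Hist1h1c, 2.69 for Hist3h2ba, 0.98 for Hist1h2bc, 0.98 for Hist1h4i and 1.09 for Hist1h4j above the sum, and -0.96 for Hist1h3a below it. The first 4 were called without each of the 12 libraries in turn. Hist1h3a was not called without WT replicate 2 (-0.76), Ring1a-KO replicate 2 (-0.78), Ring1a-KO replicate 3 (-0.88) or Ring1b-KO replicate 3 (-0.82), and was -0.44 without Ring1a-KO replicates 2 and 3 together, which leaves 1 library in that genotype. Hist1h4j was not called with median ratio scaling (0.92), or without WT replicate 2 (0.98), Ring1a-KO replicate 1 (0.75), Ring1b-KO replicate 2 (0.93) or Ring1a/b-dKO replicate 3 (1.04). Without Ring1a-KO replicates 2 and 3 it was 1.78.

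The row outside the member rule, the pseudogene Hist3h2bb-ps next to Hist3h2ba, was at 5.13 to 8.67 TPM in Pcgf-6KO (mean 6.96) and 0.30 to 0.88 in WT. It passed the filter on low values only through the Pcgf-6KO libraries, so its level is given with no test. It is counted in none of the sums.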

How the results depend on the processing

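Of 132 calls of a named member in a comparison, 77 kept direction and call in every alternative run. Over all alternatives 1753 values kept the call, 260 lost it in the same direction, and 1 reversed: Hist1h1a in Ring1a/b-dKO was -0.02 with quantile normalization. Members called in Ring1a-KO were 13, and 7 without a filter, 4 in a fit of only the groups compared and 4 without Ring1a-KO replicates 2 and 3. With median ratio scaling 15 members were called in Ring1a/b-dKO and 11 in Ring1a/b-dKO against Ring1b-KO, and with quantile normalization 18 in Pcgf-4KO. Of 17842 genes tested, 11476, 10651 and 11233 were called in the same order. The interaction was called in 10 members with values scaled to nuclear protein-coding genes and in 12 without the 2 Ring1a-KO libraries. The ratio of summed TPM to WT with median ratio scaling was 1.01 in Ring1b-KO, 1.34 in Ring1a/b-dKO, 1.75 in Pcgf-4KO and 3.56 in Pcgf-6KO, and the last was 4.34 over protein-coding genes. In these cases the cause was not tested.

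Leaving out 1 library at a time gave 6 to 21 calls in Ring1a-KO, 5 to 10 in Ring1b-KO, 14 to 18 in Ring1a/b-dKO, 25 to 27 in Pcgf-4KO and 49 to 51 in Pcgf-6KO. It gave 13 to 17 for Ring1a/b-dKO against Ring1b-KO, 28 to 33 for Pcgf-6KO against Pcgf-4KO and 5 to 16 for the interaction. The summed ratios ranged from 1.01 to 1.56, 1.09 to 1.14, 1.69 to 1.75, 2.15 to 2.24 and 4.47 to 4.59 in the order of the comparisons with WT.

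Libraries with the same replicate number showed little shared deviation (correlations from -0.109 to 0.071, 0 of 3 pairs over 0.1 in any comparison). Correlations this small cannot settle whether the numbers stand for a shared batch. With the number as a replicate block the calls were 13, 10, 22, 29 and 51 in the comparisons with WT, 19 for Ring1a/b-dKO against Ring1b-KO, 34 for Pcgf-6KO against Pcgf-4KO and 9 for the interaction. Every library correlated best with its own number only between Pcgf-6KO and Pcgf-4KO (6 of 6). TPM gives no depth, so values near 1 TPM carry an unknown counting error.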
